A study of Mus musculus with 45 samples.

Results

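The genes described here are 10 genes of the circadian clock: Per1, Per2, Per3, Dbp, Tef, Nr1d1, Nr1d2, Arntl, Npas2 and Ciart. They were taken by name from a count table of 55367 gene symbols, and all 10 were found in it. The list was chosen by a readout of these data: Per3 had been seen to separate the scaffolds of mice with 4T1 tumors from the other scaffolds. Comparisons that hold the 4T1 scaffolds are therefore given as values, with no test. The other scaffolds were what they were set against, so their levels entered the choice as well. The rule had no threshold.

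The study asked how the metastatic potential of a breast tumor shows in tissues away from it. Female Balb/c mice received subcutaneous scaffolds of polycaprolactone, a porous polymer that fills with host cells, at 7 to 8 weeks of age. After 2 weeks, cells of the sister lines 67NR, 4T07 or 4T1 were placed in a mammary fat pad, and healthy mice without tumors were the controls. Scaffold, lung, spleen and primary tumor were collected on day 14, with 3 libraries in each of the 15 groups and 45 in all. The 3 lines are triple negative and stem from the same spontaneous mouse tumor: 67NR is nonmetastatic, 4T07 invades but does not colonise distant tissue, and 4T1 is metastatic. Control scaffolds, lungs and spleens came from mice without a tumor, and there is no control group for the tumor. The study assigned cages, not single mice, to the lines, and the labels do not link the tissues of a mouse.

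In the mouse clock the proteins ARNTL and CLOCK, or NPAS2 in place of CLOCK, bind E-box sequences and turn on the Per, Nr1d, Tef, Dbp and Ciart genes. The PER proteins and CIART then hold back ARNTL and CLOCK, while NR1D1 and NR1D2 repress Arntl, so that Arntl transcript peaks in the opposite part of the day from that of its targets. TEF and DBP, together with HLF, activate genes through the D-box, which NFIL3 represses. These transcripts rise and fall daily in lung, spleen and connective tissue, so the hour of dissection sets their level. The labels give day 14 but no hour for any sample. A shift of phase, a change of amplitude and a different hour of collection cannot be told apart here, and neither can a line and the cages given to it.

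The libraries were made with QuantSeq, which reads the 3′ end of polyadenylated RNA. Totals ran from 3491888 to 8175380 counts per library, with a median of 5149589, so that 3 counts stood for 0.367 to 0.859 CPM (counts scaled to the total of the library). Levels are given in CPM of all counts, in the order of replicates 1, 2 and 3. Since a bulk library counts RNA and not cells, fewer cells of a type and less RNA per cell cannot be told apart. Summed lung epithelium markers were 28467 to 37121 CPM in control, 67NR and 4T1 lungs. The 3 lungs of 4T07 mice stood apart at 5693 to 14287 CPM. Of the 16 marker lists, 11 had 4T07 lung values outside the range of the other 9 lungs. Erythroid markers were 42838 to 56713 CPM there against 11984 to 23437, B cell markers 289 to 369 against 59.6 to 118, and exocrine pancreas markers 108 to 151 against 0 to 6.12. Tumors labelled 67NR held 13.7 to 16.5 CPM of keratin and Epcam markers, below 4T07 tumors at 105 to 155 and 4T1 tumors at 830.1 to 942.

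The promoters show where the members differ in sequence. Of the 10 members, 9 matched an entry in the RefSeq promoter table (GRCm38.p6), with 12 entries in all, each running from 250 bases before a transcription start to 50 bases after it. Searches covered both strands. The E-box CACGTG is in 7.15% of all 32851 promoters, the D-box TTATGTAA in 0.938%, and the ROR element written as TAGGTCA or TGGGTCA in 6.45%. Per3 carries 2 D-boxes, which begin 205 and 158 bases before its start. The 250 bases before the start (chr4:151044666-151044915, − strand) are shown because no other member with an entry holds those exact letters. Variant forms of the D-box were not searched. The D-boxes are in capitals.
Per3: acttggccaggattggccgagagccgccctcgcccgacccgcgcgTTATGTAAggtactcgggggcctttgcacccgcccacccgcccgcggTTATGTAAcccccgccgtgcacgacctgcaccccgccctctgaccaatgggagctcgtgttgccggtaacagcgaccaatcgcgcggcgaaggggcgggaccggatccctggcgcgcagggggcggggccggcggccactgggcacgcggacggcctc

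The E-box is in the windows of 3 members, Per1, Tef and Ciart. Tef has an E-box at each of its 2 starts, and the copy before the downstream start (chr15:81811164-81811413, + strand) begins 138 bases before it. Ciart holds 3 copies, at 116, 58 and 44 bases before its start (chr3:95882229-95882478, − strand). Per1 holds 1 copy, 166 bases before the first of its starts (chr11:69098699-69098948, + strand). These windows are printed for the members whose levels are followed below, with the E-boxes in capitals.
Tef: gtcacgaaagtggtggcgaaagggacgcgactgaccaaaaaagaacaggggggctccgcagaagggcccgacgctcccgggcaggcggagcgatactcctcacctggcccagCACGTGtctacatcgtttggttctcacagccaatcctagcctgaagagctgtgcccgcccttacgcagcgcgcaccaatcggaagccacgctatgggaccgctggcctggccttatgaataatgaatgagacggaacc
Ciart: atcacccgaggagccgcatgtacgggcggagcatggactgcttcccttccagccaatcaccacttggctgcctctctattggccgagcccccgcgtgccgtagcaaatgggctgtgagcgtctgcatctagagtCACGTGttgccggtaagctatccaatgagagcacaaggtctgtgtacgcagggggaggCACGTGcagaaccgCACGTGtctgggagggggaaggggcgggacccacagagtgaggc
Per1: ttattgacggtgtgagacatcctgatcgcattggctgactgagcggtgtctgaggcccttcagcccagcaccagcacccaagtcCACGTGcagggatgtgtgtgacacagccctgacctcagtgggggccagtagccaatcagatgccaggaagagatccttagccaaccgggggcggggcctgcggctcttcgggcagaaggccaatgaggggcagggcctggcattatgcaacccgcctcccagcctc

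Arntl, which NR1D1 and NR1D2 repress, holds the ROR element TAGGTCA 30 bases after the second of its starts. The element is shown in 30 bases around it (chr7:113207530-113207559, + strand), in capitals.
Arntl: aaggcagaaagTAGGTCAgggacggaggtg

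Nr1d1 has the variant E-box AACGTG 28 bases before its start, a motif (CACGTT or AACGTG) found in 4.68% of promoters. The letters AGGTCA, which also lie within the ROR element TAGGTCA, are in 16.3% of promoters and in those of Nr1d2, Arntl and Per1. None of these motifs is in the windows of Dbp or Npas2. A match describes the letters only.

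In healthy mice Per2, Per3, Tef and Nr1d1 were higher in lung than in scaffold and than in spleen. Nr1d2 was higher in lung than in spleen. Npas2, the partner that can replace CLOCK, was higher in scaffold than in lung or spleen. Arntl was lower in lung than in spleen by less than 2-fold.

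A gene was called when its adjusted p (edgeR quasi-likelihood test, Benjamini-Hochberg over all genes tested) was under 0.10, or 0.05 in tumors, and its fold change was over 2. Fold changes are log2 values ± their standard error, from TMM-scaled counts. The control scaffolds entered the choice of the genes, so comparisons with them are not independent of it and are given as a description. Between lung and scaffold of control mice 5 of 10 members were called, where 32.6% of all genes were. Between lung and spleen 5 were called, against 39.9% of all genes, and between spleen and scaffold 1, against 34.5%. With 10 members, these counts do not set the clock genes apart from other genes. The period gene Per2 was at 16.0, 23.3 and 34.0 CPM in control lungs, 2.10, 2.22 and 3.15 in scaffolds and 6.21, 3.46 and 2.80 in spleens. The 3 lungs lay above the other 6 libraries, and the difference from scaffold was the largest of the members (log2 fold change 3.06 ± 0.35, adjusted p = 3.43e-06). Per3 was at 38.5, 56.3 and 80.1 CPM in lung, 9.23, 11.2 and 14.0 in scaffold and 12.0, 11.5 and 12.1 in spleen, again with no overlap of lung with either tissue (log2 fold change 2.25 ± 0.24, adjusted p = 1.40e-06 for lung over spleen). Npas2 was at 6.29, 7.60 and 6.45 CPM in scaffold against 3.31, 1.62 and 0.486 in lung and 0.583, 2.08 and 1.29 in spleen (log2 fold change -2.56 ± 0.51, adjusted p = 0.000839 for spleen over scaffold). Nr1d1 was at 15.0, 14.1 and 40.8 CPM in lung, 5.24, 5.38 and 3.31 in scaffold and 6.21, 9.46 and 8.41 in spleen (log2 fold change 2.11 ± 0.38, adjusted p = 0.000369 for lung over scaffold), without overlap. Tef was at 142, 159 and 235 CPM in lung, 38.2, 43.2 and 53.8 in scaffold and 58.3, 87.9 and 83.7 in spleen (log2 fold change 1.77 ± 0.20, adjusted p = 4.20e-06 for lung over scaffold). For Nr1d2 the levels were 145, 182 and 174, 55.8, 77.1 and 88.9 and 48.2, 43.8 and 36.4 CPM in the same order of tissues (log2 fold change 1.92 ± 0.18, adjusted p = 4.03e-07 for lung over spleen). The lungs lay above both other tissues in all 3 genes. Without control lung replicate 3 the calls of Tef and Nr1d1 between lung and spleen were lost, leaving 3.

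The 15 groups were put in order of their mean level. For Per3 the 4 lung groups held the top 4 of 15 places, from 67NR lungs at 109 ± 15.1 CPM (SD, n = 3) to 4T07 lungs at 42.0 ± 10.4. The 4T1 scaffolds came next at 29.3 ± 3.75, and 4T1 spleens were last at 8.48 ± 1.06. Of the 14 neighbouring pairs in that order, 12 overlapped between libraries, and the 2 that did not were 4T1 against control lungs and 4T1 scaffolds against 67NR spleens. For Arntl all 14 neighbouring pairs overlapped, from 4T07 tumors at 34.9 ± 1.03 CPM to 4T1 lungs at 8.01 ± 0.982. Per2 had 3 neighbouring pairs without overlap, Nr1d2 had 2, and Per1, Tef, Nr1d1 and Npas2 had 1 each. Dbp and Ciart had none.

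**Figure D1:**
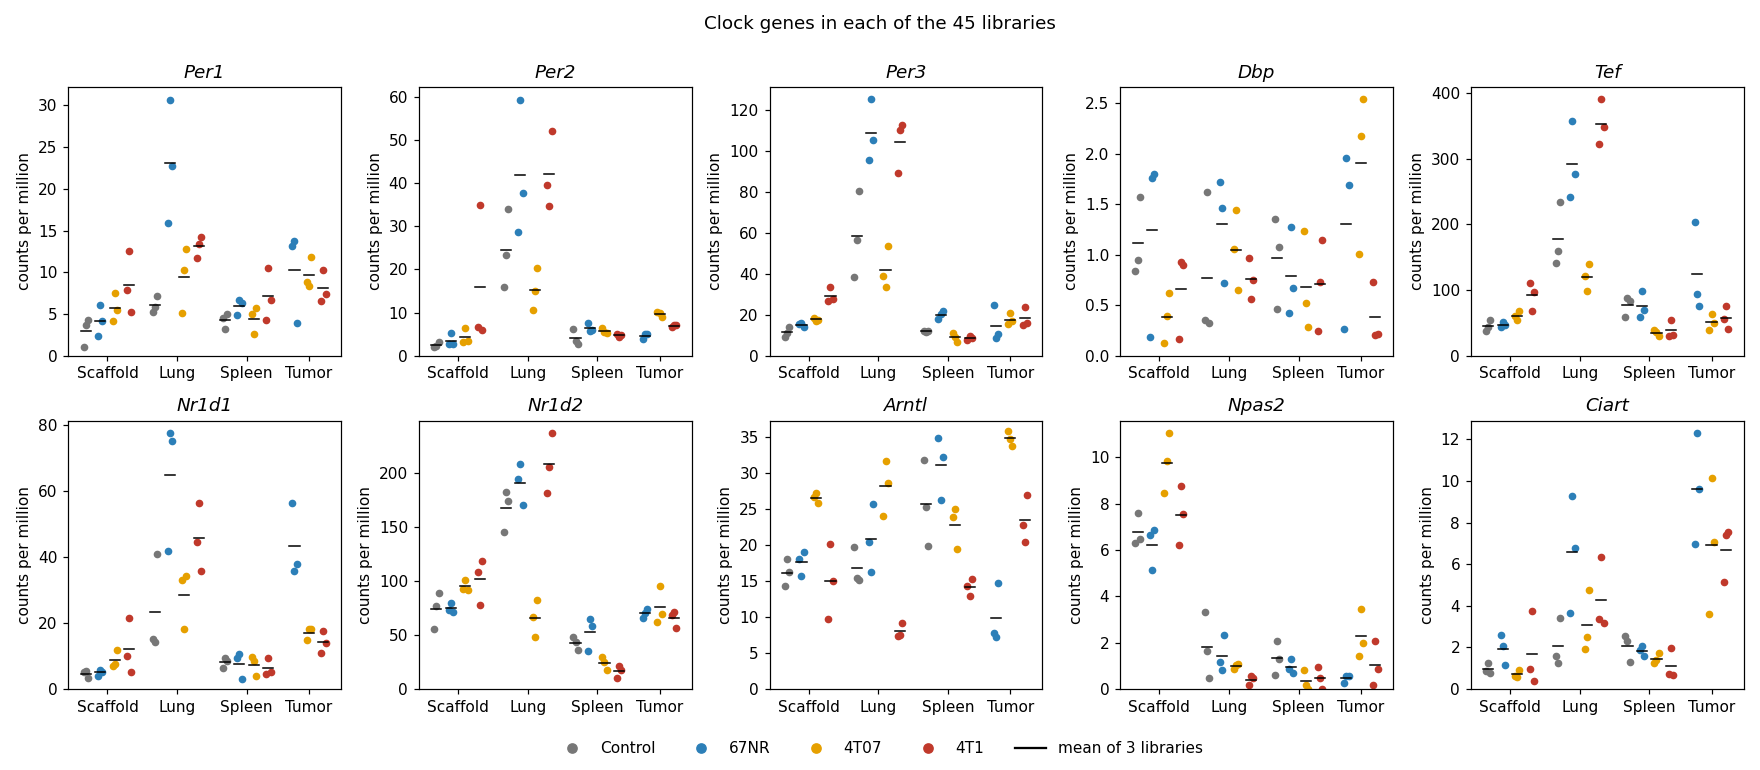
Each panel plots 1 clock gene in CPM (y axis, from 0) for the 45 libraries, grouped by tissue (x axis) and coloured by tumor line, with a black line at the mean of 3 libraries. A lung group is the highest for Per1, Per2, Per3, Tef, Nr1d1 and Nr1d2, Npas2 is highest in scaffolds, and Dbp stays under 3 CPM throughout.

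In lungs of 4T1 mice the clock genes moved in opposite directions. Per1 and Tef rose over control lungs while Arntl and Npas2 fell, though DESeq2 called neither Tef nor Npas2. Per3 was higher by less than 2-fold. In 67NR lungs Per1, Nr1d1 and Ciart rose with Arntl near its control level. In 4T07 lungs Nr1d2 fell, and Per1, Per2, Per3, Tef, Nr1d1 and Nr1d2 were all lower than in 67NR lungs. The 4T07 lungs also stood apart from the other lungs in 11 of 16 marker lists.

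Arntl, the activator of the loop, was at 7.41, 7.48 and 9.14 CPM in 4T1 lungs. It was at 19.7, 15.5 and 15.2 CPM in control lungs, 20.5, 16.2 and 25.8 in 67NR lungs and 24.1, 31.8 and 28.6 in 4T07 lungs. The 3 lungs of 4T1 mice lay below the other 9, with none overlapping. The fall was called against control (log2 fold change -1.05 ± 0.21, adjusted p = 0.0025), against 67NR (log2 fold change -1.26 ± 0.20, adjusted p = 0.000332) and against 4T07 (log2 fold change -1.86 ± 0.20, adjusted p = 3.60e-07). Against control it missed the fold threshold without control lung replicate 1, at -0.91. Npas2 was read from 1, 4 and 3 counts in 4T1 lungs and 19, 9 and 3 in control lungs, and its CPM ranges overlapped. It was called (log2 fold change -2.10 ± 0.67, adjusted p = 0.0611), but not by DESeq2 nor without control replicate 1 or 2 or 4T1 replicate 1 or 2, with an adjusted p of up to 0.398 over these refits. It was at 1.15, 0.812 and 2.31 CPM in 67NR and 0.847, 1.03 and 1.08 in 4T07 lungs.

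Tef, which activates genes through the D-box, was at 322, 391 and 348 CPM in 4T1 lungs and 142, 159 and 235 in control lungs. It was at 242, 358 and 277 CPM in 67NR lungs and 121, 97.9 and 140.4 in 4T07 lungs. The 4T1 lungs were above all control and all 4T07 lungs, and the 4T07 lungs were the lowest group. The rise over control (log2 fold change 1.01 ± 0.19, adjusted p = 0.00154) sat at the fold threshold, and DESeq2 did not call it, nor did edgeR with DESeq2's size factors or without control replicate 1 or 2, 4T07 replicate 2 or 3 or 4T1 replicate 2. Its adjusted p was 0.0171 or less in all of these, and its log2 fold change at least 0.87. Against 4T07 lungs it was larger (log2 fold change 1.52 ± 0.19, adjusted p = 2.17e-06). Dbp, of the same family, was at 0.323 to 1.72 CPM over the 12 lungs and was called in no comparison.

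Per3, the member with the D-box pair, was on average also lowest in 4T07 lungs. Its level was 38.5, 56.3 and 80.1 CPM in control, 95.6, 125 and 105 in 67NR, 39.0, 33.4 and 53.6 in 4T07 and 89.2, 110.3 and 113 in 4T1 lungs. Lungs of 67NR and 4T1 mice did not overlap control lungs. The gain passed the adjusted p but not the fold threshold in 67NR (log2 fold change 0.80 ± 0.21, adjusted p = 0.0207) and in 4T1 lungs (log2 fold change 0.86 ± 0.21, adjusted p = 0.0126). Against 4T07 lungs both lines were called (log2 fold change 1.26 ± 0.21 for 4T1 over 4T07 and -1.21 ± 0.21 for 4T07 over 67NR).

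Per1, which also answers to acute signals such as glucocorticoid, was at 15.9, 30.7 and 22.7 CPM in 67NR lungs and 5.23, 5.77 and 7.12 in control lungs. It was at 11.8, 13.4 and 14.2 CPM in 4T1 and 5.08, 10.3 and 12.8 in 4T07 lungs. Both 67NR and 4T1 lungs lay above all control lungs (log2 fold change 1.84 ± 0.28, adjusted p = 0.00109, and log2 fold change 1.13 ± 0.29, adjusted p = 0.0185). Per2 was at 28.7, 59.4 and 37.8 CPM in 67NR, 39.6, 34.7 and 52.2 in 4T1, 16.0, 23.3 and 34.0 in control and 10.6, 15.1 and 20.4 in 4T07 lungs. It was called for the 4T07 lungs against 67NR (log2 fold change -1.29 ± 0.29, adjusted p = 0.000996) and for 4T1 against 4T07 (log2 fold change 1.41 ± 0.29, adjusted p = 0.000525). Early response genes, a list of 10, summed to 695 to 1545 CPM in 67NR, 456 to 983 in control, 507 to 708 in 4T1 and 264 to 567 in 4T07 lungs. Glucocorticoid-responsive genes, a list of 11, summed to 871 to 1103 CPM in control lungs, below 1109 to 1336 in the other lungs. The part of either list in the levels of Per1 and Per2 was not tested.

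Among the repressors of Arntl, Nr1d1 was at 41.8, 77.5 and 74.9 CPM in 67NR lungs, 15.0, 14.1 and 40.8 in control, 44.4, 56.3 and 35.8 in 4T1 and 32.8, 18.2 and 34.1 in 4T07 lungs. The 67NR lungs lay above all control lungs, with control replicate 3 far above the other two (log2 fold change 1.38 ± 0.32, adjusted p = 0.0112). The Nr1d1 gene overlaps Thra on the other strand by 1075 bases (GENCODE vM1, NCBIM37), and the strand setting of the counting is not given in the sources used here, so its counts are uncertain. Nr1d2, whose product acts as that of Nr1d1, was at 66.0, 48.1 and 82.2 CPM in 4T07 lungs against 145, 182 and 174 in control lungs. It was at 195, 208 and 170.0 CPM in 67NR and 181, 205 and 237 in 4T1 lungs. The 3 lungs of 4T07 mice lay below the other 9 (log2 fold change -1.29 ± 0.17, adjusted p = 4.10e-06). Ciart, a repressor of ARNTL and CLOCK, was at 3.64, 9.26 and 6.80 CPM in 67NR and 1.57, 1.26 and 3.40 in control lungs, which do not overlap (log2 fold change 1.55 ± 0.43, adjusted p = 0.0288), and this call was lost without control replicate 1 or 2 or 67NR replicate 2. It was at 1.91, 2.48 and 4.77 CPM in 4T07 and 3.38, 6.35 and 3.15 in 4T1 lungs.

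Counts of called members over the 10 were as follows, and comparisons that share a group share its libraries. For 67NR against control 3 rose, where 4.25% of all genes were called. For 4T1 against control 2 rose and 2 fell, against 4.61% of all genes. For 4T1 against 67NR 1 fell, against 5.03%. The comparisons with 4T07 lungs had a far higher background: 1 member fell for 4T07 against control (29% of all genes), 6 fell for 4T07 against 67NR (29.7%), and 4 rose with 1 falling for 4T1 against 4T07 (23.5%). The median log2 fold change of the members was 0.83 for 4T1 over control and 0.67 for 67NR over control, where that of all genes was 0.00 and 0.03. It was -0.03 for 4T07 over control, where that of all genes was -0.01.

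The number of calls turned on single lungs. Without control lung replicate 3, whose Per2, Per3, Nr1d1 and Tef were the highest of the controls, 8 members were called for 4T1 against control and 3 for 4T07 against control. Without control lung replicate 1 the first count was 1. Without 67NR lung replicate 2, the highest of its group in Per1, Per2, Per3 and Tef, 2 members were called for 4T07 against 67NR in place of 6. In that comparison Per1 was also lost without 4T07 replicate 1, and Nr1d1 without 67NR replicate 3 or 4T07 replicate 2 and under 4 of 5 other settings. When the 3 lungs of 4T07 mice were left out, the comparisons among the other lines gave 8 calls, as with them.

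The lungs of 4T07 mice also differed from the other lungs in their makeup. Lung epithelium markers were at 5693 to 14287 CPM there, endothelium markers at 751 to 1206 against 2332 to 2814 in the other lungs, and proliferation markers at 1299 to 1777 against 73.3 to 161. In the plot of clock genes against lung epithelium markers the 3 lungs form a group of their own. Neutrophil markers were at 21850.5 to 25951 CPM in 4T07 and 11374 to 26734 in 4T1 lungs, against 229 to 289 in control and 67NR lungs. Red pulp macrophage markers were at 519 to 637 CPM in 4T07 lungs and 90.5 to 188 in the other lungs. They were at 1098 to 1291 CPM in control spleens. The part of all these markers in the levels of the clock genes was not tested.

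**Figure D2:**
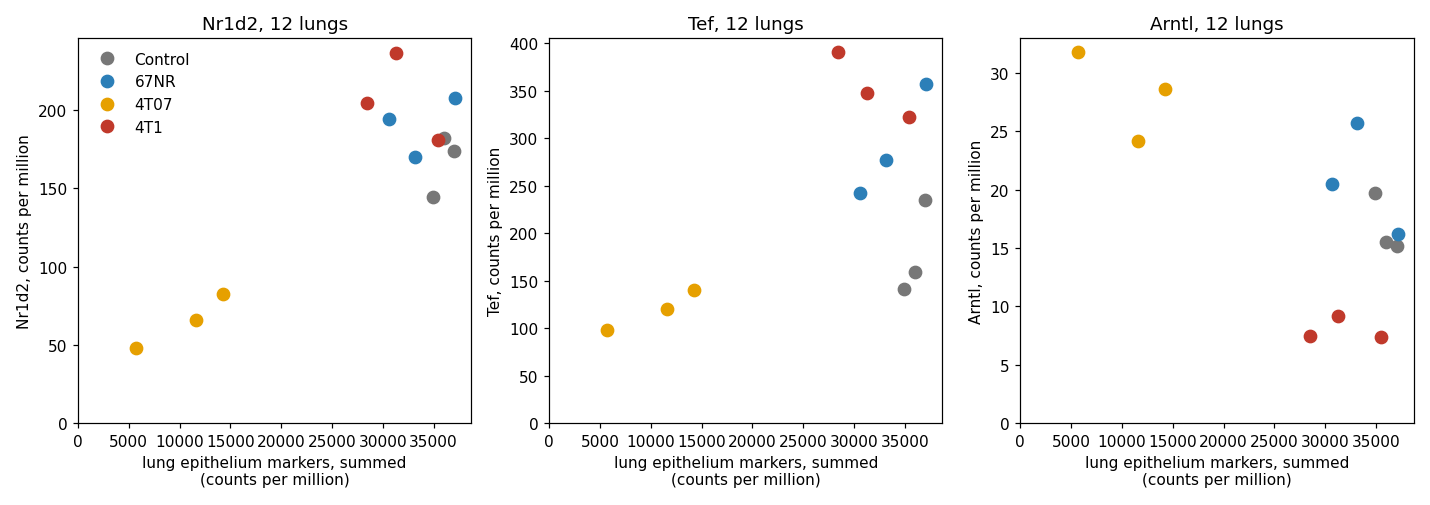
The level of Nr1d2, Tef and Arntl (y axes, CPM from 0) is plotted against the sum of 5 lung epithelium markers (x axes, CPM) for the 12 lungs, 1 point a library. The 4T07 lungs sit at the low end of the markers with the lowest Nr1d2 and Tef, while the 4T1 lungs have the lowest Arntl at marker levels near those of control and 67NR lungs.

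In tumors Arntl, Tef and Nr1d1 were called between 67NR and the other lines. These 3 of 10 members are close to the share of all genes called, 28.9% for 4T07 and 20.7% for 4T1 against 67NR. The count therefore does not set the clock genes apart from other genes. The 67NR tumors were low in Arntl and high in Tef and Nr1d1, and 4T07 and 4T1 tumors were the reverse. Per2 was higher in 4T07 than in 67NR tumors, the direction of Arntl, by less than 2-fold on the TMM scale. No Per gene passed both thresholds between tumors.

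Arntl was at 7.79, 7.27 and 14.7 CPM in 67NR tumors, 35.9, 34.8 and 33.9 in 4T07 tumors and 22.9, 20.5 and 27.0 in 4T1 tumors. No 67NR tumor overlapped another line (log2 fold change 1.57 ± 0.26, adjusted p = 0.00019 for 4T07 over 67NR, and log2 fold change 1.04 ± 0.26, adjusted p = 0.00585 for 4T1 over 67NR). The second call sat at the fold threshold and was lost without 67NR replicate 1 or 2, 4T07 replicate 1 or 2 or 4T1 replicate 3, with log2 fold changes down to 0.87. Nr1d1 was at 56.2, 35.8 and 37.8 CPM in 67NR, 14.7, 18.1 and 18.1 in 4T07 and 10.8, 17.6 and 14.0 in 4T1 tumors. It held its call in all refits, again with no overlap between 67NR and the rest (log2 fold change -1.59 ± 0.23, adjusted p = 5.79e-05, and log2 fold change -1.81 ± 0.23, adjusted p = 2.35e-05). Tef was at 203, 94.6 and 76.2 CPM in 67NR, 39.7, 62.8 and 50.2 in 4T07 and 55.6, 75.6 and 39.9 in 4T1 tumors. Replicate 1 of 67NR stood far above its group's other tumors in Tef, and without it the fall of Tef in 4T1 tumors was -0.82 and no longer called.

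Of the 10 members, 1 rose and 2 fell in 4T07 against 67NR tumors, where 28.9% of all genes were called. For 4T1 against 67NR the count was also 1 and 2, against 20.7%, and for 4T1 against 4T07 it was 0, against 8.61%. The median log2 fold change of the members was -0.05 for 4T07 and -0.43 for 4T1 over 67NR, where that of all genes was 0.16 and 0.09. At an unadjusted p under 0.05 the comparison of 4T1 with 4T07 held 2 members, Arntl and Dbp, and DESeq2 called 0. Per2 was at 3.76, 5.04 and 5.08 CPM in 67NR, 10.2, 9.98 and 9.03 in 4T07 and 6.58, 7.17 and 7.12 in 4T1 tumors, without overlap between any of the lines. It passed the adjusted p for 4T07 over 67NR (log2 fold change 0.82 ± 0.28, adjusted p = 0.026) and not for 4T1 over 67NR (log2 fold change 0.39 ± 0.28, adjusted p = 0.319). TMM scaling set these log2 fold changes 0.25 and 0.20 lower than ratios of CPM. Per3 was at 24.5, 8.67 and 10.7 CPM in 67NR, 15.3, 20.9 and 16.7 in 4T07 and 15.0, 23.6 and 16.0 in 4T1 tumors, with all 3 lines overlapping. Keratin and Epcam markers differed between lines as given above, fibroblast markers were 884 to 1109 CPM in 67NR against 4733 to 8810.4 in the other tumors, and 7 of 16 marker lists set the 67NR tumors apart. Their part in these levels was not tested.

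**Figure D3:**
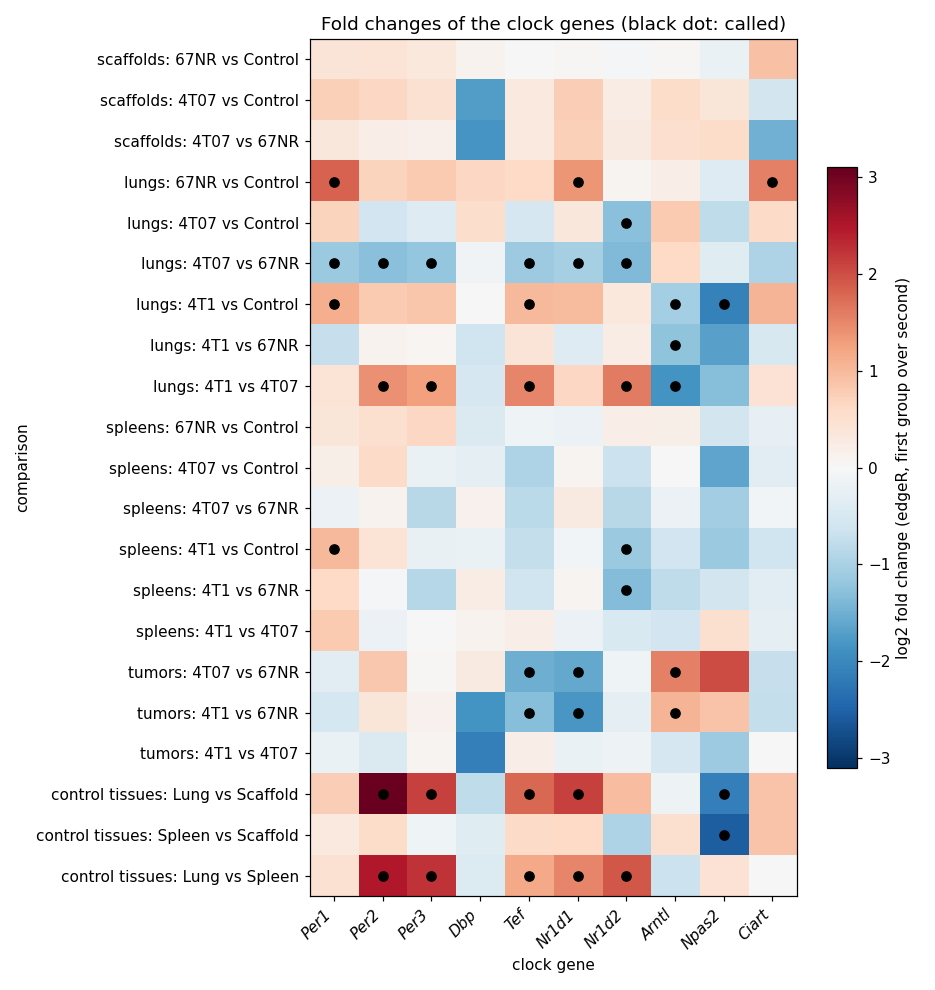
Colours give the log2 fold change of each clock gene (x axis) in the 21 tested comparisons within a tissue or between control tissues (y axis), first group over second, and black dots mark called genes. Arntl is called in the opposite direction to Tef in the lung comparisons of 4T1 with control and with 4T07 and in both tumor comparisons with 67NR.

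In spleens Nr1d2 fell in 4T1 spleens and Per1 was called there at the fold threshold. Tef was lower in 4T07 and 4T1 spleens than in control spleens, by less than 2-fold on the TMM scale.

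Nr1d2 was at 10.1, 21.3 and 17.1 CPM in 4T1 spleens, 48.2, 43.8 and 36.4 in control, 35.4, 64.4 and 58.5 in 67NR and 29.2, 24.7 and 17.8 in 4T07 spleens. The 4T1 spleens did not overlap control or 67NR spleens (log2 fold change -1.15 ± 0.27, adjusted p = 0.00418, and log2 fold change -1.35 ± 0.27, adjusted p = 0.00139), and the call against control was lost without 4T1 replicate 1. Per1 was at 4.31, 10.5 and 6.63 CPM in 4T1 and 4.47, 3.23 and 4.96 in control spleens, which overlap, 4.82, 6.64 and 6.28 in 67NR and 4.94, 2.59 and 5.73 in 4T07 spleens. Its call (log2 fold change 1.00 ± 0.35, adjusted p = 0.0411) was lost under all 5 other settings and without control replicate 2, 4T07 replicate 3 or 4T1 replicate 2. Tef was at 39.1, 35.9 and 30.4 CPM in 4T07, 29.5, 54.4 and 31.1 in 4T1, 58.3, 87.9 and 83.7 in control and 58.4, 98.1 and 69.1 in 67NR spleens. The means were 35.1 ± 4.43 CPM in 4T07, 38.3 ± 13.9 in 4T1 and 76.6 ± 16.0 in control spleens (SD, n = 3), a gap that TMM scaling narrowed by 0.17 for 4T07 and 0.26 for 4T1 on the log2 scale. Neither invasive line overlapped control spleens in Tef (log2 fold change -0.95 ± 0.24, adjusted p = 0.00802 for 4T07), and without control spleen replicate 1 the 4T07 difference was called.

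Per3 was at 17.8, 20.2 and 21.8 CPM in 67NR spleens, 12.0, 11.5 and 12.1 in control, 10.9, 9.32 and 6.87 in 4T07 and 7.43, 9.55 and 8.45 in 4T1 spleens. The 67NR spleens lay above all others, and control spleens above 4T07 and 4T1 spleens, but no difference reached 2-fold on the TMM scale. Against 67NR spleens Per3 passed the adjusted p in 4T1 (log2 fold change -0.88 ± 0.21, adjusted p = 0.00471) and 4T07 spleens (log2 fold change -0.86 ± 0.20, adjusted p = 0.00743), where ratios of CPM are 0.35 and 0.27 lower on the log2 scale. For 67NR over control it was smaller (log2 fold change 0.64 ± 0.20, adjusted p = 0.0899). Arntl was at 14.4, 13.0 and 15.3 CPM in 4T1, 31.8, 25.4 and 19.8 in control, 35.0, 26.3 and 32.3 in 67NR and 23.9, 25.0 and 19.5 in 4T07 spleens. The 4T1 spleens lay below the other 9. The difference passed the adjusted p but not the fold threshold against control (log2 fold change -0.60 ± 0.22, adjusted p = 0.048) and 67NR (log2 fold change -0.78 ± 0.21, adjusted p = 0.0122), and did not pass against 4T07 (log2 fold change -0.60 ± 0.22, adjusted p = 0.174).

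Of the members, 1 rose and 1 fell for 4T1 against control, where 19.9% of all genes were called, and 1 fell for 4T1 against 67NR, against 20.7%. None of the 10 was called by edgeR for 67NR against control (2.26% of all genes), 4T07 against control (18.6%), 4T07 against 67NR (14.7%) or 4T1 against 4T07 (2.33%). At an unadjusted p under 0.05 these comparisons held 1, 2, 3 and 2 members, and DESeq2 called 0 in each of them. The median log2 fold change of the members was -0.42 for 4T1, -0.26 for 4T07 and 0.03 for 67NR over control, where that of all genes was -0.10, -0.09 and 0.00. Neutrophil markers were 11793 to 30416 CPM in 4T07 and 4T1 spleens against 935 to 1655 in control and 67NR spleens, and B cell markers 165 to 374 against 701 to 858. Their part in the levels of Nr1d2 and Tef was not tested. TMM scaling set the fold changes of 4T1 against control spleens 0.26 higher on the log2 scale than ratios of CPM.

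In scaffolds the values of 4T1 mice are those that led to the choice of these genes and are given as a description. Per3 was at 26.6, 33.6 and 27.7 CPM in 4T1 scaffolds, 18.5, 16.9 and 17.6 in 4T07, 15.3, 15.9 and 14.1 in 67NR and 9.23, 11.2 and 14.0 in control scaffolds. The 4T1 scaffolds lay above the other 9, with ratios of mean CPM of 1.66 over 4T07, 1.94 over 67NR and 2.55 over control. Tef was at 111, 68.4 and 97.3 CPM in 4T1, 60.5, 53.9 and 67.7 in 4T07, 43.2, 51.8 and 46.7 in 67NR and 38.2, 43.2 and 53.8 in control scaffolds, and the 4T1 scaffolds again lay above the rest. Arntl was at 9.80, 20.1 and 15.1 CPM in 4T1 and 26.7, 27.3 and 25.9 in 4T07 scaffolds, which did not overlap, and at 14.3, 18.1 and 16.2 in control and 18.1, 15.7 and 19.0 in 67NR scaffolds.

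Replicate 2 of the 4T1 scaffolds set several of the means. Its Per2 was 34.9 CPM against 6.69 and 5.93 in the other two 4T1 scaffolds, and its Nr1d1 was 21.4 against 9.96 and 5.21. It was also the highest of its group in Per1, Per3, Dbp, Arntl, Npas2 and Ciart and the lowest in Tef and Nr1d2. Ranges of 4T1 and control scaffolds did not overlap for 4 of 10 members, where 17.1% of all genes did not, and nothing is read from this since the contrast chose the genes. The same count was 3 against 67NR scaffolds, where it was 15.8% of all genes, and 3 against 4T07 scaffolds, where it was 18.3%. Adipocyte markers were 152 to 235 CPM in 4T1 scaffolds against 43.6 to 147 in the others. It was the 1 list of 16 that set 4T1 scaffolds apart, and its part in these levels was not tested.

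Among the control, 67NR and 4T07 scaffolds, whose levels also entered the choice and whose comparisons are not independent of it, 0 of 10 members were called by edgeR. All genes were called at 0% for 67NR against control, 7.44% for 4T07 against control and 5.85% for 4T07 against 67NR. At an unadjusted p under 0.05 they held 0, 3 and 4 members, and DESeq2 called 0 in each. The 4T07 scaffolds lay above all control scaffolds in Per3 and Arntl, which is given as a description. The median log2 fold change of the members was 0.43 for 4T07 and 0.07 for 67NR over control, where that of all genes was 0.04 and 0.01.

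The change of Per3, Tef and Nr1d2 against control differed between tissues. For 4T1 mice it was higher in lung than in spleen. For 4T07 mice it was higher in scaffold than in lung, which is given as a description, since the scaffold levels entered the choice of the genes. Here a gene was called at an adjusted p under 0.10 for the difference between the log2 fold changes of 2 tissues, with no fold threshold.

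For 4T1 mice Tef rose in lung and was lower in spleen, and the difference of its log2 fold changes was 1.73 ± 0.31 (adjusted p = 0.000314). The same difference was 1.47 ± 0.32 for Nr1d2 (adjusted p = 0.00223) and 1.07 ± 0.29 for Per3 (adjusted p = 0.0138). These were 3 of 10 members, where 16.8% of all genes were called, and they were called in all 36 refits without a library and under all 5 other settings. Arntl was lower in both tissues, with a difference of -0.47 ± 0.31 (adjusted p = 0.364).

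For 4T07 mice 3 members differed between scaffold and lung, where 20.6% of all genes did. They were Nr1d2 with 1.64 ± 0.31, Per3 with 1.01 ± 0.28 and Tef with 0.93 ± 0.31, scaffold minus lung, and all 3 rest on the 4T07 lungs whose markers stood apart. All differences in this paragraph that hold scaffolds, those against spleen included, use levels that entered the choice of the genes. They are given as a description. Tef lost this call without control lung replicate 3 or 4T07 lung replicate 2. Between scaffold and spleen 2 members differed, where 16.7% of all genes did: Tef with 1.25 ± 0.32 and Nr1d2 with 0.90 ± 0.32, the latter lost without control scaffold replicate 1, control spleen replicate 1 or 2, 4T07 scaffold replicate 2 or 4T07 spleen replicate 3. Between lung and spleen of 4T07 mice 0 were called, against 22% of all genes. For 67NR mice 0 members were called for lung minus spleen (0.0263% of all genes), scaffold minus lung (0.00375%) and scaffold minus spleen (0.0075%). At an unadjusted p under 0.05 the 3 comparisons of 67NR mice held 4, 3 and 0 members, and DESeq2 called 0 in each. The lung minus spleen comparison of 4T07 mice held 3 members at that level, and DESeq2 called 2 of them, Nr1d2 and Arntl. The median difference of all genes was 0.15 for 4T1 lung minus spleen, 0.15 for 4T07 scaffold minus lung and 0.19 for 4T07 scaffold minus spleen.

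Arntl and Tef lay at opposite ends in some libraries of lung and tumor, but not in every tissue. Both were lower in 4T1 than in control spleens (log2 fold change -0.60 for Arntl and -0.75 for Tef). Mean levels of both were higher in 4T07 than in control scaffolds, at 26.6 against 16.2 CPM for Arntl and 60.7 against 45.1 for Tef. The scaffold values are a description, since they entered the choice of the genes. In the plot of Tef against Arntl the 3 lungs of 4T1 mice are at one end, with low Arntl and high Tef. The 4T07 tumors are towards the other, with Arntl at 33.9 to 35.9 CPM and Tef at 39.7 to 62.8. The 4T07 lungs had Arntl at 24.1 to 31.8 CPM and Tef at 97.9 to 140. That Tef level was the lowest of the lung groups but above the median of 68.4 CPM over the 45 libraries. Since the libraries of a tissue fall into separate groups by line, no correlation over them is given. With the mean of each of the 15 groups subtracted, so that differences between lines and tissues drop out, Pearson's r of log2(CPM + 1) over the 45 libraries was -0.59 for Arntl and Tef. It was 0.73 for Per3 and Tef, 0.48 for Per3 and Nr1d1, 0.43 for Per3 and Nr1d2, and -0.13 for Per3 and Arntl. These are descriptions without a p, since genes of a library share its depth and RNA. Ciart, the gene with the 3 E-boxes, was most like Per2 (r = 0.59) and Nr1d1 (r = 0.58), at counts of 2 to 57 per library.

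**Figure D4:**
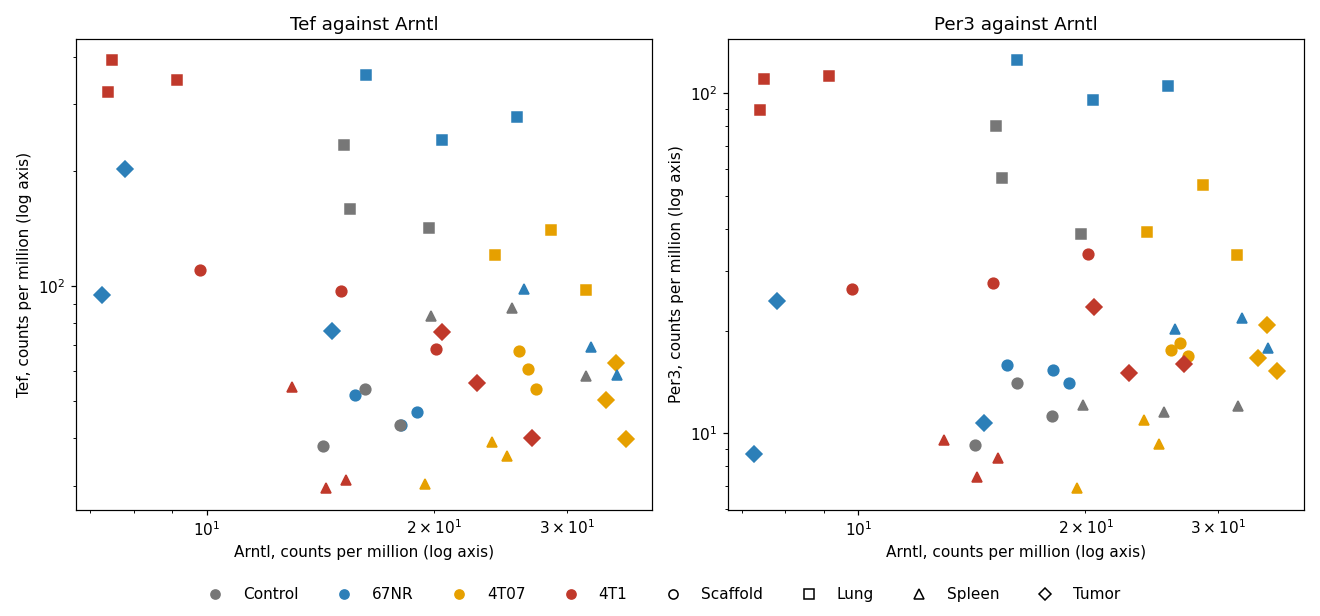
Tef (left) and Per3 (right) are plotted against Arntl in CPM on log axes for the 45 libraries, with colour for the tumor line and marker shape for the tissue. The 4T1 lungs lie at the upper left of both panels, with Arntl at 7.41 to 9.14 CPM.

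Of 9508 genes with a mean of at least 5 CPM in each tissue, Tef was the 10th most like Per3 in this within-group measure. The 5 genes most like Per3 were Firre (r = 0.80), Fam193b (r = 0.79), Neat1 (r = 0.77), Anks3 (r = 0.76) and Ccnt2 (r = 0.75), of which Firre and Neat1 are long noncoding RNAs held in the nucleus. For Arntl the 5 most like were Nudcd2 (r = 0.76), Zdhhc13 (r = 0.73), Srfbp1 (r = 0.72), Cyb5r4 (r = 0.72) and Mtx2 (r = 0.71). The 5 least like Arntl were Srp68 (r = -0.68), Rtf2 (r = -0.67), Exoc8 (r = -0.65), Phka2 (r = -0.65) and B9d2 (r = -0.64). Without the tumors, 1 of these 15 genes was still named. Dbp, Npas2 and Ciart were below the minimum level and could not be placed.

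**Figure D5:**
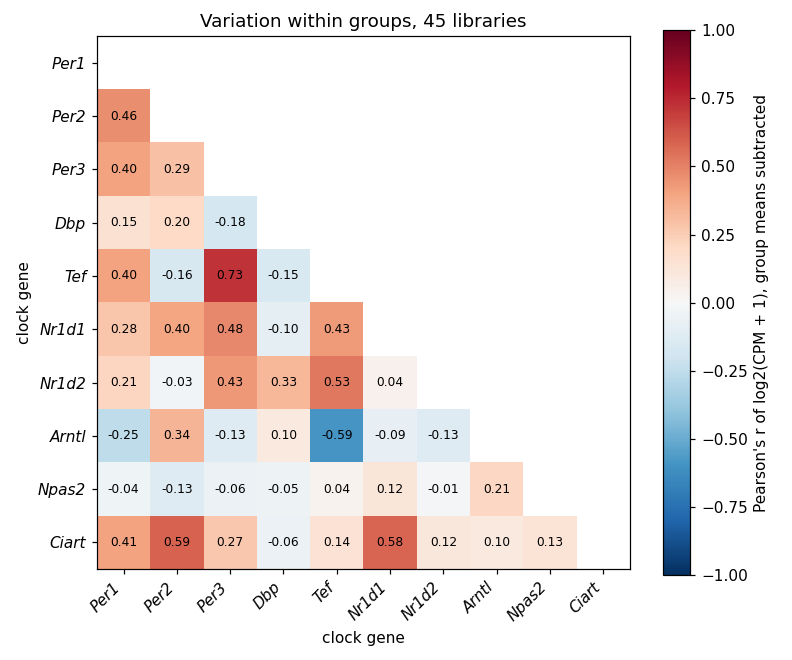
Each cell gives Pearson's r between 2 clock genes (both axes) over the 45 libraries, for log2(CPM + 1) with the mean of each group subtracted. Per3 with Tef (0.73) is the highest value and Arntl with Tef (-0.59) the lowest.

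Dbp gave the least information. Its counts ran from 1 to 12 per library over all 45, and 17 libraries had 3 or fewer. In scaffolds it had 4, 6 and 10 counts in control, 1, 11 and 11 in 67NR, 1, 2 and 4 in 4T07 and 1, 5 and 5 in 4T1 mice. In lungs it had 2, 9 and 2 counts in control, 9, 9 and 5 in 67NR, 5, 7 and 3 in 4T07 and 6, 4 and 5 in 4T1 mice. In spleens it had 7, 2 and 5 counts in control, 2, 5 and 3 in 67NR, 6, 3 and 1 in 4T07 and 1, 3 and 5 in 4T1 mice. The groups overlapped in lungs and spleens. Its highest group was 4T07 tumors at 1.00, 2.18 and 2.54 CPM, against 0.731, 0.205 and 0.216 in 4T1 and 0.269, 1.96 and 1.69 in 67NR tumors. That difference missed the threshold (adjusted p = 0.0734). The Dbp gene overlaps Sphk2 on the other strand by 689 bases in the same annotation, so its counts are uncertain too. The same holds for Ciart, which lies wholly within C920021L13Rik on the other strand, and for the 193 bases that Tef shares with Gm17597. No difference in Dbp passed the test at these counts.

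Other genes of the clock were followed on a list of 23. Nfil3, the repressor of the D-box, rose in the lungs and spleens of both 4T07 and 4T1 mice. In lungs it was at 12.9, 15.8 and 6.45 CPM in 4T1, 7.41, 8.67 and 6.51 in 4T07, 3.49, 2.34 and 1.46 in control and 2.11, 0.975 and 1.74 in 67NR lungs (log2 fold change 2.28 ± 0.35, adjusted p = 0.00018 for 4T1 over control). In spleens it was at 12.7, 9.06 and 7.08 CPM in 4T1 and 2.14, 1.85 and 1.72 in control spleens (log2 fold change 2.57 ± 0.37, adjusted p = 7.59e-05). No lung or spleen of 4T07 or 4T1 mice overlapped those of control or 67NR mice. Neutrophil markers, given above, were also higher in these lungs and spleens, and their part in the level of Nfil3 was not tested.

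In lungs 2 of 23 listed genes rose for 4T1 over control and 0 fell (4.61% of all genes were called), 5 rose and 3 fell for 4T07 over control (29%), and 1 rose for 67NR over control (4.25%). Timeless, a gene of DNA replication named for its fly relative, was at 39.4, 42.7 and 28.2 CPM in 4T07 against 6.45, 3.43 and 8.42 in control lungs (log2 fold change 2.64 ± 0.24, adjusted p = 2.67e-08). In spleens, where 22 of them could be tested, 6 rose and 3 fell for 4T1 over control (19.9% of all genes), 5 rose and 2 fell for 4T07 over control (18.6%), and 0 were called by edgeR for 67NR (2.26%), where 6 had an unadjusted p under 0.05. Rora, which activates Arntl through the ROR element, was at 9.59, 14.4 and 13.7 CPM in 4T1 and 52.6, 51.0 and 50.0 in control spleens (log2 fold change -1.77 ± 0.20, adjusted p = 6.81e-06). Rorb was called in spleens for 4T07 over 67NR, at 7.21, 1.55 and 2.29 against 1.88, 0.511 and 1.35 CPM, which overlap (log2 fold change 1.75 ± 0.59, adjusted p = 0.0448).

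In tumors 7 of 23 listed genes rose and 2 fell for 4T07 over 67NR (28.9% of all genes), and 5 rose and 1 fell for 4T1 over 67NR (20.7%). Bhlhe40, which represses at E-boxes, was at 14.0, 14.3 and 13.3 CPM in 67NR, 105, 176 and 125 in 4T07 and 119, 122 and 156 in 4T1 tumors (log2 fold change 3.06 ± 0.22, adjusted p = 8.17e-08 for 4T1 over 67NR). Rorb was at 33.3, 26.6 and 36.7 CPM in 67NR, 5.22, 5.08 and 1.69 in 4T07 and 3.66, 4.51 and 8.63 in 4T1 tumors (log2 fold change -3.20 ± 0.36, adjusted p = 6.04e-06 for 4T07 over 67NR). Both genes separated the 67NR tumors from the other 6 with no overlap. Fbxl21 was called for 4T07 over 67NR, but was at 0 in all 67NR tumors and at 0.401, 0.907 and 1.41 CPM in 4T07 tumors, near the level of 3 counts. In scaffolds Rorb fell in 4T07 against 67NR, from 5.17, 4.65 and 4.91 to 2.20, 2.36 and 1.86 CPM (log2 fold change -1.26 ± 0.43, adjusted p = 0.0811), and it was the single listed gene called there outside the 4T1 scaffolds. In control mice Hlf, a D-box activator like Tef and Dbp, was at 23.5, 24.5 and 43.2 CPM in lung, 1.26, 1.90 and 3.78 in scaffold and 3.11, 3.46 and 3.88 in spleen. Bhlhe41, a repressor at E-boxes like Bhlhe40, was higher in scaffold than in spleen of control mice, with 65.4, 103 and 98.5 CPM against 12.0, 13.6 and 10.8.

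The glucocorticoid-responsive genes summed to 752 to 1445 CPM in 4T07 and 4T1 spleens against 317 to 453 in the other spleens. That list holds Lcn2, a gene abundant in neutrophils. Temperature-responsive genes, a list of 6, summed to 195 to 290.5 CPM over the 12 lungs and 168 to 210.3 over the 12 scaffolds. The part of either list in the levels of the clock genes was not tested.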

How the data were processed

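Whole-number counts per gene were deposited by the authors as 1 table of 45 libraries. Per the submitters' processing notes, reads were trimmed with Trim Galore 0.5.0, aligned with STAR 2.6.0 and counted with featureCounts. The genome build, annotation, strand setting and use of the molecular identifiers in counting are not given in the sources used here. Each of the 45 value columns matched 1 sample, 0 columns had none, and 120 lines that repeat a symbol were summed. No 2 replicates held identical values.

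Genes with more than 10 counts over a fit were tested with edgeR 4.0.16 (quasi-likelihood test, TMM) in R 4.3.3, with 1 fit each for scaffolds, lungs, spleens, tumors, control tissues and the differences between tissues. The 4T1 scaffolds entered 2 of these fits for the spread alone. The standard error is the log2 fold change over the root of its F statistic. DESeq2 1.42.0 was an alternative, and both were tested on simulated data. P-values measure the spread between libraries of a group, which the labels do not tie to single mice. Members and lists were chosen with earlier results of these data known. Values in every library are given for Per3, Dbp and Arntl and for members called in a tissue, and for up to 3 other clock genes a tissue with the largest change among those called. One of those other clock genes is not reported here.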

Additional observations from a re-analysis of the deposited data

Results flagged for a closer look

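These 8 values are differences between tissues in the log2 fold change against control, each past an adjusted p of 0.10 (edgeR, an interaction term fitted across all genes and 36 libraries of scaffold, lung and spleen). No explanation of them was tested.

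In 4T1 mice the change was higher in lung than in spleen by 1.73 for Tef, 1.47 for Nr1d2 and 1.07 for Per3. In 4T07 mice it was higher in scaffold than in lung by 1.64 for Nr1d2, 1.01 for Per3 and 0.934 for Tef, and these 3 values rest on the lungs whose epithelium, erythroid and exocrine pancreas markers stood apart. In 4T07 mice the change was also higher in scaffold than in spleen by 1.25 for Tef and 0.903 for Nr1d2. All these values of 4T07 mice use scaffold levels that entered the choice of the genes, so they are given as a description. The 3 genes code for a D-box activator, a repressor of Arntl and a period protein. The median of all genes was itself 0.15, 0.15 and 0.19 above 0 in these 3 comparisons, in the same order.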

How the results depend on the processing

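Of 48 called values of the 10 genes, 44 stayed called under every other test, scaling and filter in which the gene was tested. Npas2 in control tissues and lungs and Ciart in lungs did not enter the filter of at least 10 counts in every sample. Without each single library 32 stayed called, and 0 of 1437 recomputed values turned in direction. The cause of the lost calls was not tested. DESeq2 called 2 members in 4T1 against control lungs (4 by edgeR), 1 in 4T1 against control spleens (2 by edgeR) and 2 for the lung minus spleen difference of 4T07 mice (0 by edgeR). With DESeq2's size factors in edgeR the last 2 counts were 1 and 1. With no filter on low counts the counts were 1 in scaffolds, from 4T07 against 67NR, 2 in 4T1 against 67NR lungs, 1 in 4T1 against control spleens and 1 in 4T1 against 4T07 tumors. The differences between tissues then gave 17 calls in place of 8, with 2 each for lung minus spleen in 67NR and 4T07 mice and 2 for scaffold minus lung in 67NR mice. With at least 10 counts in every sample, the counts were 1 in 4T07 against control spleens, 1 in 4T1 against control spleens, 0 in control spleen against scaffold, where Npas2 did not enter, and 1 and 4 for the lung minus spleen and scaffold minus spleen differences of 4T07 mice. Fits of only the 2 groups compared gave 1 in scaffolds, from 4T07 against 67NR, and 1 in 4T1 against control spleens.

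Leaving out each library in turn gave 0 to 1 calls in scaffolds, 15 to 28 in lungs (20 with all libraries), 2 to 5 in spleens (3), 5 to 7 in tumors (6), 9 to 13 between control tissues (11) and 7 to 12 for the differences between tissues (8). The 1 call in scaffolds, in 4T07 against 67NR (0 to 1), came without 67NR scaffold replicate 1 or 4T1 scaffold replicate 2. In lungs the range was 2 to 4 for 67NR and 1 to 3 for 4T07 against control, 2 to 7 for 4T07 against 67NR, 1 to 8 for 4T1 against control and 1 to 2 for 4T1 against 67NR, with the highest count without control lung replicate 3 in 4 of these 5 comparisons. The lowest was 2 for 4T07 against 67NR without 67NR lung replicate 2 and 1 for 4T1 against control without control lung replicate 1. In spleens it was 0 to 2 for 4T07 against control (2 without control spleen replicate 1), 0 to 1 for 4T07 against 67NR (1 without 67NR spleen replicate 1) and 1 to 2 for 4T1 against control (1 without control replicate 2, 4T07 replicate 3 or 4T1 replicate 1). In tumors it was 3 to 4 for 4T07 against 67NR, 2 to 3 for 4T1 against 67NR and 0 to 1 for 4T1 against 4T07 (1 without 67NR tumor replicate 1). Between control tissues it was 5 to 7 for lung against scaffold, 1 to 2 for spleen against scaffold (2 without control scaffold replicate 1 or control spleen replicate 1) and 3 to 5 for lung against spleen (3 without control lung replicate 3). For the differences between tissues it was 0 to 3 for 4T07 lung minus spleen (3 without 4T1 scaffold replicate 2), 3 to 5 for 4T1 lung minus spleen (5 without control lung replicate 3), 2 to 4 for 4T07 scaffold minus lung and 1 to 3 for 4T07 scaffold minus spleen. For scaffold minus lung of 4T07 mice it was lowest without 4T07 lung replicate 2, and for scaffold minus spleen it was 1 without control scaffold replicate 1, control spleen replicate 2, 4T07 scaffold replicate 2 or 4T07 spleen replicate 3. A refit without the 3 lungs of 4T07 mice, chosen after the data were seen, gave 8 calls in the lung comparisons of the other lines and 5 in the differences that do not use those lungs, the same numbers as with them.

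Counts over all genes moved as well. With at least 10 counts in every sample, fewer genes were tested and 362 in place of 933 were called for 67NR against control lungs and 2721 in place of 5937 for 4T07 against 67NR tumors. With no filter 42 in place of 0 were called for 67NR against control scaffolds, 762 in place of 478 for 67NR against control spleens and 767 in place of 493 for 4T1 against 4T07 spleens. For the lung minus spleen difference of 67NR mice 7 genes were called, against 208 by DESeq2 and 378 with no filter. Of the 15 genes named as most or least like Per3 and Arntl, 6 were named again with Spearman's rho, and 5, 8, 7 and 1 without scaffolds, lungs, spleens and tumors. The r of Per3 with Tef ran from 0.58 to 0.80 and that of Arntl with Tef from -0.63 to -0.57 over these settings. The planned pooled correlation of Arntl with other members, and its refit without the most distant samples, is not given because the libraries fall into separate groups. No paired analysis was possible because the labels give no number or mouse that links the libraries of different groups. The depth limits Dbp most, at 1 to 12 counts a library, then Npas2 at 0 to 71 and Ciart at 2 to 57.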
